A study of Mus musculus with 16 samples.

Results

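The genes described here were 10 imprinted genes that regulate growth, *H19*, *Igf2*, *Igf2r*, *Dlk1*, *Meg3*, *Rian*, *Peg3*, *Plagl1*, *Grb10* and *Mest*. They were listed by name and matched to the gene identifiers of the deposited table through the mouse GENCODE annotation. All 10 were among the 51912 identifiers of the table, and all 10 passed the filter on low counts that left 20159 genes to test. RNA was sequenced from the heart ventricles of 16 mice in 4 groups of 4, which differed in genotype and in the operation given at postnatal day 1. WT SH and WT MI were wild-type C57BL/6J mice from a supplier. KO SH and KO MI were *Lrrc10*-/- mice, made on a C57BL/6 background, that lack *Lrrc10* in the whole body and from before birth. MI was a myocardial infarction by ligation of the left anterior descending artery, and SH was a sham operation in which the chest was opened and closed but the heart was neither exposed nor ligated. All ventricles were taken 7 days after the operation and included tissue above and below the ligation, so infarcted and spared muscle were not separated. Supplier mice and colony mice also differ in origin, which cannot be told apart from the genotype in these groups.

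An imprinted gene is expressed mainly from the copy inherited from 1 parent. Many imprinted genes act on fetal growth: *Igf2* encodes insulin-like growth factor 2, *Igf2r* encodes a receptor that carries this ligand to lysosomes, and *Grb10* encodes an adaptor that inhibits insulin and insulin-like growth factor (IGF) receptors. In the heart and other tissues several of these genes are high before birth and decline during the first weeks of life. The parental copy that gave rise to each transcript was not measured in these libraries, which give the sum over both copies.

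The members lie in 7 regions of the GRCm39 genome. *H19* (chr7:142129262-142133957) and *Igf2* (chr7:142204503-142220694) are neighbours on the minus strand of chromosome 7, and *Peg3* (chr7:6706882-6733468) lies on the same strand near the other end of that chromosome. *Dlk1* (chr12:109418749-109429262), *Meg3* (chr12:109506877-109538165) and *Rian* (chr12:109570242-109628150) follow each other on the plus strand of chromosome 12. *Igf2r* (chr17:12901293-12988614) and *Grb10* (chr11:11880498-11988683) are on minus strands, and *Plagl1* (chr10:12936248-13007438) and *Mest* (chr6:30723546-30752058) are on plus strands. *H19*, *Meg3* and *Rian* are annotated as long non-coding RNAs and the other 7 as protein-coding genes. Transcripts on the opposite strand overlap *H19*, *Igf2*, *Igf2r* (*Airn*), *Rian* (*Rtl1*) and *Mest* (*Copg2*). The reads were strand-specific, but the strand setting of the counting is not given in the sources used here, so reads of these pairs may not be fully separated.

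Sequences of 3 start sites are shown because the results below turn on these genes or because the window holds a motif known for the imprinted domain. Each window runs from 250 bases before to 50 bases after the start of the canonical GENCODE transcript, is read from GRCm39, and is printed 5′ to 3′ on the strand of the gene. The *H19* window (chr7:142133908-142134207, minus strand) holds 1 match to the 14-base core (with 2 positions left free) that the insulator protein CTCF binds in the imprinting control region between *H19* and *Igf2*. The match is in capitals and starts at base 149 of the window. No RefSeq start was found for *H19*, so this window rests on the GENCODE start alone. Whether *H19* transcripts in these hearts begin at that start was not tested. The match is therefore not shown to lie in a promoter that these hearts use.
H19: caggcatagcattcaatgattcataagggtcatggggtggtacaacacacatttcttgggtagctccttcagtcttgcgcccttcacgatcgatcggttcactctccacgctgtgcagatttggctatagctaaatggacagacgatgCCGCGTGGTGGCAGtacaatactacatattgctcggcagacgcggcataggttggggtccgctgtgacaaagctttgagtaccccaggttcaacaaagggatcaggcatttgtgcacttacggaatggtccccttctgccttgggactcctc
Of the 19767 windows of tested genes that were read, 10 (0.0506%) held this motif on either strand. The 91433 bp that span *H19*, *Igf2* and the sequence between them held 3 matches, at chr7:142134046-142134059, chr7:142134501-142134514 and chr7:142135771-142135784. The first is the match in the *H19* window.
site 1: CCGCGTGGTGGCAG
site 2: CCGCGCGGTGGCAG
site 3: CCGCGTGGTGGCAG
The *Peg3* window (chr7:6733419-6733718, minus strand) held 1 match to GGGGCCCC, the core of a motif reported for the transcription factor PLAGL1, which is itself a member. It starts at base 100 and is in capitals, and 233 of the 19767 windows (1.18%) held the same letters on either strand.
Peg3: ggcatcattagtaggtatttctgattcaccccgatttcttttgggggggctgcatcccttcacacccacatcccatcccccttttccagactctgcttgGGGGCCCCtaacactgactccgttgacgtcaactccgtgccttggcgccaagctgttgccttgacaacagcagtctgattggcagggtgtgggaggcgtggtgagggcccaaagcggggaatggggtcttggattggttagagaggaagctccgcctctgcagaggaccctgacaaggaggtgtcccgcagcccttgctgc
The *Plagl1* window (chr10:12966159-12966458, plus strand) held no match to the CTCF core or to GGGGCCCC and is shown because *Plagl1* differed between sham groups.
Plagl1: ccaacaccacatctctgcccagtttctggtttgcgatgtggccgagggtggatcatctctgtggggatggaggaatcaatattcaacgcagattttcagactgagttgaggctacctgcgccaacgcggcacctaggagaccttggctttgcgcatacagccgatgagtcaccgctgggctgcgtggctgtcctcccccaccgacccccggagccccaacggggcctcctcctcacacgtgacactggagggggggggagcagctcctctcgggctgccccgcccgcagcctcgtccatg
CpG dinucleotides, the sites of DNA methylation, numbered 45 in the *Grb10* window, 34 in the *Igf2r* window, 33 in the *Dlk1* window, 18 in the *Plagl1* window, 13 in the *H19* window and 0 in the *Rian* window, where the median over all windows was 13. These counts depend on the start chosen. Windows at RefSeq starts held 9 for *Dlk1*, 26 for *Plagl1*, 45 or 9 for *Grb10*, 34 for *Igf2r* and 0 for *Rian*. Methylation and binding were not measured, so these matches describe the sequence only.

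Several members also carry microRNA genes within the transcript. The table does not measure mature microRNAs, and 5 of the mature sequences, from *H19*, *Rian* and *Mest*, are given so that the transcripts can be read for what they encode. They come from RefSeq and were each found in the GRCm39 sequence of their gene, and capitals mark the seed, bases 2 to 8. No 2 of the sequences shown share a seed.
mmu-miR-675-5p (in H19): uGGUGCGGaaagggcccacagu
mmu-miR-675-3p (in H19): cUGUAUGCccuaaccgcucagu
mmu-miR-370-3p (in Rian): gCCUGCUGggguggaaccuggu
mmu-miR-341-3p (in Rian): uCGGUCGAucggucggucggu
mmu-miR-335-5p (in Mest): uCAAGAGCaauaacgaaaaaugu

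The libraries held between 33783874 and 57470159 counts (median 45092798), and levels below are in CPM, the counts of a gene relative to the TMM-scaled total of its library. *Lrrc10* had 0 counts in all 8 KO libraries and between 26.2 and 35.6 CPM in the 8 WT libraries. Cardiomyocyte markers were high in every library. *Xist*, which is transcribed in female cells, was between 919 and 984 CPM in 2 libraries each of KO SH, WT MI and KO MI and between 6.17 and 9.76 CPM in all 4 libraries of WT SH, so WT SH did not show the balance of sexes that the labels give. KO MI replicates 2 and 7 stood apart from the other 14 libraries in skeletal muscle transcripts. The summed level of 19 skeletal muscle markers (the list without *Ckm*, which heart muscle also expresses) was 116 CPM in KO MI replicate 2 and 158 CPM in KO MI replicate 7, against 6.83 to 28.6 CPM in the others. Calls that rest on KO MI are therefore also given without these 2 libraries. In bulk tissue, fewer cells of a type and less RNA per cell cannot be told apart. The labels do not say whether litter or day was shared, so p-values measure the spread between these mice.

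Per kilobase of exon, *H19* was the most abundant member, with a mean of 90.6 CPM per kb over the 16 libraries. *Igf2* (52.6 CPM per kb) and *Igf2r* (48.5 CPM per kb) followed, and their ranges over libraries overlapped, although *Igf2* was the higher of the pair in 15 of 16 libraries. *Grb10* had 26.2 CPM per kb in the mean, and its range overlapped neither that of *Igf2r* nor that of *Peg3*. *Peg3* (10.4), *Mest* (9.70) and *Plagl1* (9.27 CPM per kb) were not separated from each other beyond their spread. *Meg3* (5.08), *Rian* (1.99) and *Dlk1* (0.435 CPM per kb) came last on this scale. The order depends on the annotated exon length, a union over transcripts of 2848 bases for *H19*, 19306 for *Meg3* and 31981 for *Rian*. Without division by length, the group means of *Meg3* were 85.4 to 114 CPM and those of *Mest* 68.6 to 85.1 CPM. *Dlk1* encodes a transmembrane protein of preadipocytes and muscle progenitors, and its low level means that its values rest on few reads.

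**Figure D1:**
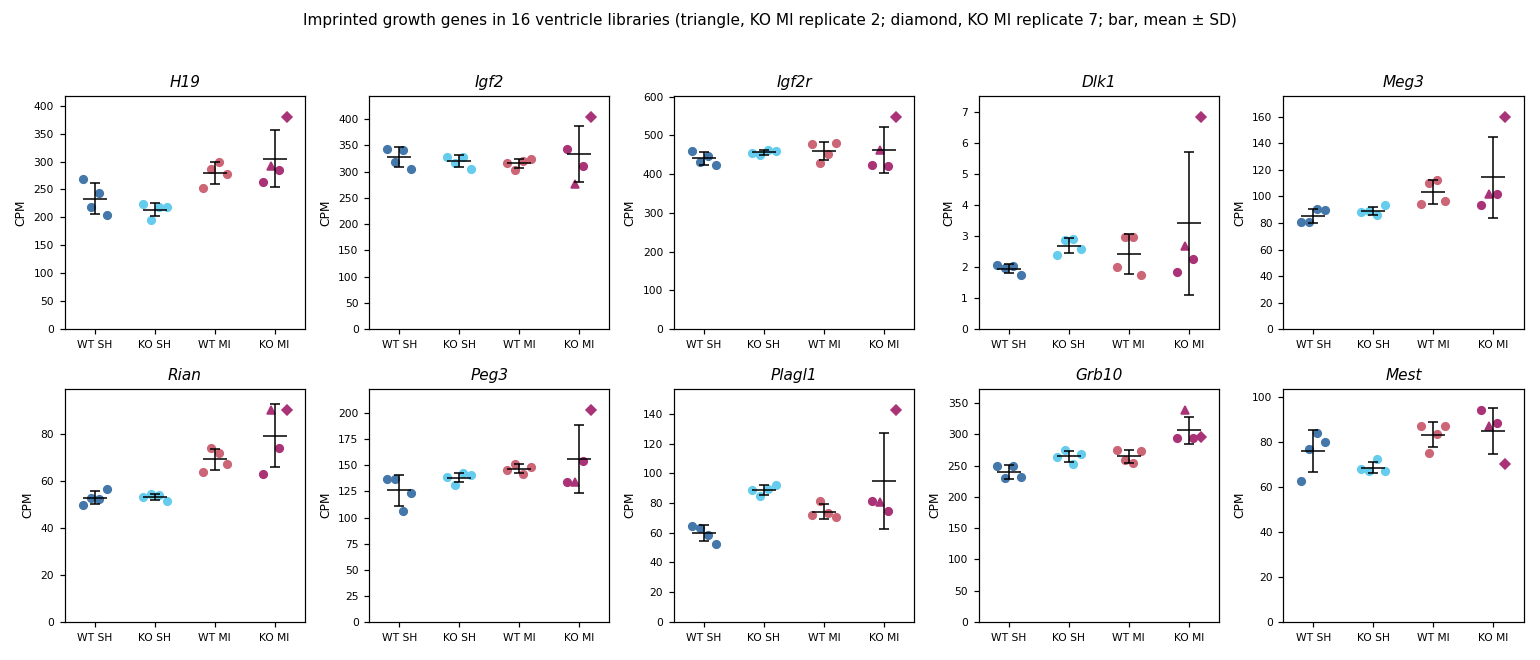
Level of the 10 imprinted growth genes (CPM, linear axis from 0) in each of the 16 ventricle libraries, by group, with the mean and SD as a black bar. *Plagl1* lies at 52.4 to 64.5 CPM in WT SH and at 84.5 to 92.2 CPM in KO SH, and the diamond of KO MI replicate 7 is the highest point of *H19*, *Igf2*, *Igf2r*, *Dlk1*, *Meg3*, *Rian*, *Peg3* and *Plagl1*.

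The sham groups show how *Lrrc10* deletion was associated with these genes without an infarct. *Plagl1*, which encodes a zinc finger transcription factor of the imprinted growth network, was the 1 member of 10 that was a differentially expressed gene (DEG), which here means an adjusted p below 0.1 together with a log2 fold change of 0.5 or more in size. Over all 20159 genes tested, 5.01% were DEGs in this comparison. In WT SH the 4 libraries had 64.5, 63.0, 58.6 and 52.4 CPM of *Plagl1* (59.6 ± 5.44, SD, n = 4), and in KO SH they had 88.7, 84.5, 89.6 and 92.2 CPM (88.8 ± 3.22, SD, n = 4). Every KO SH library was above every WT SH library. The log2 fold change was 0.57 (SE 0.15, adjusted p = 0.0230, edgeR quasi-likelihood test with Benjamini-Hochberg adjustment). The exact permutation test (two-sided) gave p = 0.0286, the smallest that 4 libraries against 4 can give. *Plagl1* stayed a DEG in all 16 fits that left out 1 library and in all 12 other settings, in which its log2 fold change lay between 0.57 and 0.69 and its adjusted p between 1.5e-05 and 0.0474. The value of 0.69 came from the fit with *Xist* as a covariate. Within KO SH, the *Xist*-high replicates 1 and 2 (88.7 and 84.5 CPM of *Plagl1*) were close to the *Xist*-low replicates 3 and 4.

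The ranges of 2 other members did not overlap between the sham groups either, where 18.5% of all genes tested did not overlap. *Dlk1* had 2.08, 1.98, 2.03 and 1.74 CPM in WT SH and 2.39, 2.89, 2.90 and 2.60 CPM in KO SH. Its log2 fold change of 0.46 (SE 0.31) did not pass with an adjusted p of 0.408 by edgeR over all 16 libraries, and reached an adjusted p of 0.0338 when only the 8 sham libraries were fitted. The mean of *Grb10* was 265 ± 9.46 CPM in KO SH, where WT SH gave 240.3 ± 11.2 CPM (SD, n = 4), a log2 difference of 0.14 (SE 0.06) with an adjusted p of 0.148 by edgeR. The values of *Igf2* (log2 fold change -0.03, 95% interval -0.21 to 0.14), *Igf2r* (0.05, -0.10 to 0.20) and *Rian* (0.01, -0.18 to 0.20) were within 0.25 of 0 on the log2 scale at both ends of their intervals. *H19* (-0.13), *Mest* (-0.14), *Meg3* (0.06) and *Peg3* (0.14) did not pass the test. Over the 10 members the median log2 fold change was 0.06, and over all genes it was 0.01.

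**Figure D2:**
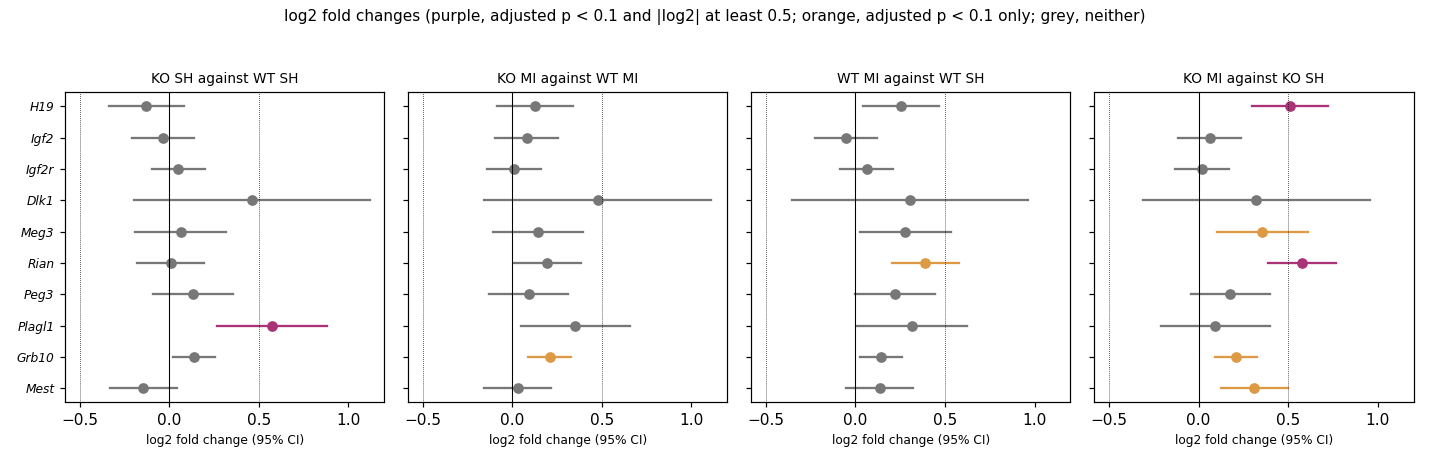
Log2 fold changes of the 10 members with 95% confidence intervals in the 4 comparisons between groups, from the edgeR fit over 16 libraries. Dotted lines mark 0.5 in both directions. *Plagl1* in KO SH against WT SH and *H19* and *Rian* in KO MI against KO SH are DEGs, and the intervals of *Igf2* and *Igf2r* include 0 in all 4 comparisons.

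In WT mice the infarct tests how the genes respond in a heart with *Lrrc10*. No member of 10 was a DEG in WT MI against WT SH by edgeR or by DESeq2, where 2.78% of genes tested were DEGs by edgeR, and 5 members had an unadjusted p under 0.05, as did 16.5% of all genes. *Rian*, the transcript that hosts small nucleolar RNAs and microRNAs of the *Dlk1*-*Meg3* domain, passed the adjusted p, as 5.31% of all genes tested did, and missed the fold threshold. It had 49.9, 52.8, 52.6 and 56.5 CPM in WT SH and 63.9, 74.1, 72.0 and 67.3 CPM in WT MI. The groups did not overlap, and the log2 fold change was 0.39 (SE 0.09, adjusted p = 0.0249 by edgeR). Besides *Rian*, the ranges of *Meg3*, *Peg3*, *Plagl1* and *Grb10* did not overlap between WT SH and WT MI, so 5 of 10 members were separated, against 12.1% of all genes tested.

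The other members of the WT comparison moved by less. *Meg3*, the long non-coding RNA of the maternal copy of that domain, averaged 103 ± 9.08 CPM in WT MI over a level of 85.4 ± 5.23 CPM in WT SH (SD, n = 4 each), a log2 fold change of 0.28 (adjusted p = 0.254 by edgeR). *Plagl1* was at 74.2 ± 4.80 CPM (SD, n = 4) in WT MI, a log2 fold change of 0.32 over WT SH (adjusted p = 0.284). The comparison of the sham groups used the same 4 WT SH libraries, which were the lowest for *Plagl1*. *Peg3* (0.22), *H19* (0.26) and *Grb10* (0.14) had adjusted p-values between 0.197 and 0.305 by edgeR. *Igf2* averaged 316 ± 9.01 CPM in WT MI, next to 327 ± 18.6 CPM in WT SH (SD, n = 4 each). The 95% interval of *Igf2*, -0.23 to 0.12, excludes a log2 change of 0.5 in either direction. Of the 10 members 9 had a positive log2 fold change, with a median of 0.24 where the median of all genes was -0.00. When KO MI replicates 2 and 7 were left out, the fit had a smaller spread, and *Rian*, *Meg3*, *Plagl1*, *H19*, *Peg3* and *Grb10* had adjusted p-values of 0.000869, 0.0095, 0.00514, 0.0436, 0.0504 and 0.0514 by edgeR in this comparison, all with log2 fold changes under 0.5. More of all genes passed in that fit too, where 4.09% of 19543 genes tested were DEGs, against 2.78% over 16 libraries. The share of all genes that passed the adjusted p alone in that fit is not given here.

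In KO mice the same question gave 2 DEGs of 10 members, *H19* and *Rian*, both higher in KO MI than in KO SH. In this comparison 7.42% of all genes tested were DEGs and 5.31% were higher. *H19*, the maternally expressed long non-coding RNA that shares its control region with *Igf2*, had 223, 196, 219 and 219 CPM in KO SH and 263, 292, 285 and 379 CPM in KO MI. The lowest KO MI library was above the highest KO SH library. Its log2 fold change was 0.51 (SE 0.10, adjusted p = 0.00453 by edgeR). *Rian* had 53.1, 54.5, 54.0 and 51.3 CPM in KO SH and 63.0, 90.3, 74.0 and 90.4 CPM in KO MI, again without overlap. Its log2 fold change was 0.58 (SE 0.09, adjusted p = 0.00113 by edgeR).

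The size of both changes depended on the libraries with skeletal muscle transcripts, while an increase remained without them. Without KO MI replicates 2 and 7, the log2 fold change of *H19* was 0.35 (adjusted p = 0.0191) and that of *Rian* was 0.36 (adjusted p = 0.00368) by edgeR, both under the fold threshold. *H19* also fell under the threshold without KO MI replicate 7 alone (0.39, adjusted p = 0.00309) and without KO SH replicate 2 alone (0.47, adjusted p = 0.0183). *Rian* remained a DEG in all 16 fits that left out 1 library. Whether the skeletal muscle transcripts had a part in these values was not tested.

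Of the other members, 3 passed the adjusted p in KO MI against KO SH with log2 fold changes under 0.5, where 10.2% of all genes tested were higher with an adjusted p under 0.1. *Mest*, which encodes an enzyme of the alpha/beta hydrolase fold, averaged 85.1 ± 10.3 CPM in KO MI and 68.6 ± 2.52 CPM in KO SH (SD, n = 4 each), a log2 fold change of 0.31 (adjusted p = 0.0315 by edgeR). *Mest* was the exception among members in that KO MI replicate 7 was its lowest library of the group, at 70.4 CPM, and without replicates 2 and 7 the edgeR estimate was 0.41 on the log2 scale (adjusted p = 0.00693). *Grb10* rose from 265 ± 9.46 to 306 ± 22.0 CPM (SD, n = 4), with a log2 fold change of 0.21 (SE 0.06, adjusted p = 0.0223 by edgeR) and no overlap of the groups, and 0.15 (adjusted p = 0.0883) without KO MI replicates 2 and 7. *Meg3* had a log2 fold change of 0.36 (adjusted p = 0.0638 by edgeR), which was 0.12 (adjusted p = 0.32) without KO MI replicates 2 and 7. *Igf2* (0.06, 95% interval -0.11 to 0.24) and *Igf2r* (0.02, -0.13 to 0.17) did not pass, and their intervals exclude the fold threshold. All 10 members had a positive log2 fold change, with a median of 0.26 where the median of all genes was -0.01. Without KO MI replicate 7 the estimates were negative for *Igf2* (-0.04), *Igf2r* (-0.07), *Dlk1* (-0.24) and *Plagl1* (-0.17), and without replicates 2 and 7 for *Igf2r* (-0.13), *Dlk1* (-0.39) and *Plagl1* (-0.20). In the 16 libraries 4 of 10 members did not overlap between groups, against 14.9% of all genes.

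Markers of several cell types moved in the same KO comparison. DEGs that were higher in KO MI than in KO SH numbered 10 of 10 mitosis genes, 7 of 8 macrophage genes, 4 of 10 fibroblast genes, 4 of 8 epicardial genes, 7 of 7 tested erythroid genes and 9 of 11 tested skeletal muscle genes, and no tested hepatocyte or thymocyte marker was called. Over all genes tested 5.31% were higher DEGs. Of the cardiomyocyte markers 1 of 10 was a lower DEG, and none of 8 endothelial markers was called. Without KO MI replicates 2 and 7 the counts were 8 of 10 for mitosis and 3 of 9 tested for skeletal muscle, and no cardiomyocyte marker was called. The counts of macrophage, fibroblast, epicardial and erythroid genes were the same. Over all genes, 863 of 19543 tested were higher DEGs in that fit. The summed level of the mitosis genes lay between 428 and 487 CPM in KO SH and between 638 and 849 CPM in KO MI, and that of the macrophage genes between 39.6 and 47.8 CPM in KO SH and between 46.4 and 99.2 CPM in KO MI. Fibroblast markers summed to between 2529 and 2762 CPM in KO SH and to between 3508 and 4363 CPM in KO MI. Erythroid markers summed to between 417 and 498 CPM in KO SH and to between 354 and 1146 CPM in KO MI, so those groups overlapped. In WT mice the mitosis genes summed to between 512 and 630 CPM after sham and between 623 and 734 CPM after MI, with 1 DEG of 10, and 6 of 8 epicardial genes were higher. Over all genes 2.78% were DEGs there. By edgeR 10 of 10 mitosis genes had an unadjusted p under 0.05 in WT mice, as did 16.5% of all genes. The adjusted p was passed by 5 of them and by 5.31% of all genes. In KO SH against WT SH 3 of 10 mitosis genes were lower by the adjusted p, as were 1456 of all 20159 genes tested. None of the 10 was a DEG between genotypes or in the interaction, so a larger response in KO mice was not shown. Markers also differed in KO SH against WT SH, where 5.01% of all genes tested were DEGs. There 4 of 8 epicardial genes were higher DEGs and 1 was a lower DEG. Lower DEGs also included 3 of 8 macrophage, 1 of 7 tested erythroid and 1 of 11 tested skeletal muscle genes. No cardiomyocyte, fibroblast or endothelial marker was a DEG there. By the adjusted p alone, 5 of 10 cardiomyocyte and 2 of 10 fibroblast genes were lower. The part of these cell types in the levels of *H19*, *Rian* and *Plagl1* was not tested.

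Between the genotypes after MI, no member of 10 was a DEG by edgeR or by DESeq2, where 1.73% of all genes tested were by edgeR, and 3 members had an unadjusted p under 0.05, as did 12.4% of all genes. *Grb10* was the member with an adjusted p under 0.1 (0.0721 by edgeR, range over 12 alternatives 0.0146 to 0.285), as for 3.07% of all genes, and a log2 fold change of 0.21 (SE 0.06). It had 275, 259, 253 and 273 CPM in WT MI and 294, 339, 295 and 296 CPM in KO MI, without overlap, which 6.48% of all genes showed. Over the 4 groups *Grb10* was therefore lowest in WT SH and highest in KO MI. Without KO MI replicates 2 and 7 its log2 fold change after MI was 0.14 (adjusted p = 0.245 by edgeR). *Plagl1* had 72.1, 81.3, 73.0 and 70.5 CPM in WT MI and 81.4, 80.7, 74.3 and 143 CPM in KO MI. These groups overlapped, and the log2 fold change of *Plagl1* was 0.35 (SE 0.14, adjusted p = 0.303 by edgeR), or 0.06 without replicates 2 and 7. *Dlk1* had 1.85, 2.70, 2.27 and 6.85 CPM in KO MI, so that 1 library set its mean.

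The interaction asked whether the difference between genotypes changed with the operation. No member of 10 passed, and 0 members had an unadjusted p under 0.05 by edgeR or an adjusted p under 0.1 by DESeq2. Over all genes tested 0.0248% passed and 13.6% had an unadjusted p under 0.05. For *Plagl1* the interaction was -0.22 (SE 0.21, adjusted p = 0.668 by edgeR), which means a smaller excess of KO over WT after MI than after sham. It became -0.49 (adjusted p = 0.0104 by edgeR) without KO MI replicate 7 and -0.52 (adjusted p = 0.0130) without KO MI replicates 2 and 7, when the remaining KO MI libraries lay at 74.3 to 81.4 CPM. In those 2 fits the interaction also passed for more of all genes tested, 840 and 369, than the 5 of the fit over 16 libraries. The 95% intervals of *H19* (0.26, -0.04 to 0.55) and *Rian* (0.19, -0.08 to 0.45) included 0, so a larger response in KO mice was not shown for either gene. The interactions were 0.09 (adjusted p = 0.773) for *H19* and -0.04 (adjusted p = 0.876 by edgeR) for *Rian* without KO MI replicates 2 and 7.

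Within a library the ratio of neighbouring genes does not depend on the library size. Because 4 ratios were compared in 4 pairs of groups, p-values were adjusted over 16 comparisons, and none passed 0.05 after adjustment. The exact permutation p of 4 libraries against 4 cannot fall below 0.0286, which left little room to pass, so the lack of a pass decides nothing. *H19* per *Igf2*, on the scale of CPM per kb, was 1.54 ± 0.109 in WT SH and 1.91 ± 0.154 in WT MI (SD, n = 4), without overlap (exact permutation p = 0.0286, adjusted p = 0.0762). In KO SH the ratio was 1.45 ± 0.0888 and in KO MI 1.99 ± 0.258 (SD, n = 4), also without overlap and with the same exact permutation p of 0.0286 and adjusted p of 0.0762. The ratios for *H19* and *Igf2* lay between 1.33 and 1.69 in the 8 sham libraries and between 1.66 and 2.29 in the 8 MI libraries. KO MI replicate 7, the highest library for both genes, had a ratio of 2.03, within the range of the other MI libraries. KO MI replicates 1 and 3 had ratios of 1.66 and 1.99, above the highest KO SH library (1.55). Between genotypes the ratio did not separate the groups (exact permutation p = 0.257 after sham and 0.686 after MI, n = 4 each). The ratio of *Rian* to *Meg3* overlapped in all 4 comparisons, and that of *Meg3* to *Dlk1* was 13.7 ± 1.71 in WT SH and 10.4 ± 1.16 in KO SH (SD, n = 4), without overlap (exact permutation p = 0.0286, adjusted p = 0.0762).

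Genes beside the members in the same imprinted domains were examined from a list of 14, of which 10 passed the filter. The gene with a DEG call in all 4 comparisons was *Ddc*, which encodes the enzyme that makes dopamine and serotonin from their precursors and neighbours *Grb10* in an imprinted domain of heart and brain. *Ddc* had 5.88, 4.36, 7.95 and 7.47 CPM in the WT SH libraries and 12.5, 14.8, 11.2 and 19.96 CPM in the KO SH libraries. After MI it had 14.02, 14.8, 14.6 and 10.3 CPM in WT mice and 26.4, 25.2, 20.2 and 33.3 CPM in KO mice. All KO SH and WT MI libraries were above all WT SH libraries, and all KO MI libraries were above all others. The log2 fold changes of *Ddc* were 1.19 (adjusted p = 0.00197) in KO SH against WT SH, 1.07 (0.00841) in WT MI against WT SH, 0.97 (0.0113) in KO MI against WT MI and 0.85 (0.00929) in KO MI against KO SH, by edgeR. The first 2 comparisons share the WT SH libraries and the last 2 share the KO MI libraries. *Ddc* was a DEG in every fit that left out 1 library, with log2 fold changes from 0.71 to 1.30, and in the fits without KO MI replicates 2 and 7 (0.67, adjusted p = 0.0519 against KO SH and 0.78, adjusted p = 0.0804 against WT MI). The interaction for *Ddc* was -0.22 (adjusted p = 0.763 by edgeR). *Ddc* per *Grb10* on the scale of CPM per kb was 0.0265 in WT SH, 0.0547 in KO SH, 0.0506 in WT MI and 0.0857 in KO MI, so that *Ddc* differed between groups by more than its neighbour did. Among the 10 tested genes within 1 Mb of *Grb10*, *Ddc* was the 1 DEG in both comparisons of genotypes. The median log2 fold change of these 10 genes was 0.22 in KO SH against WT SH and 0.33 in KO MI against WT MI. It was 0.24 in WT MI against WT SH and 0.30 in KO MI against KO SH. The median of all genes lay between -0.01 and 0.01 in these comparisons.

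In the *Dlk1*-*Meg3* domain 2 neighbours of *Rian* were also DEGs in KO MI against KO SH. *Mirg*, a non-coding RNA that hosts microRNAs, averaged 2.84 ± 0.654 CPM in KO MI over 1.67 ± 0.152 CPM in KO SH (SD, n = 4 each), a log2 fold change of 0.76 with an adjusted p of 0.00901 by edgeR. *Rtl1*, a gene derived from a retrotransposon that lies antisense to part of *Rian*, was higher by 0.71 (adjusted p = 0.0139 by edgeR). Without KO MI replicates 2 and 7 neither *Mirg* (0.47, adjusted p = 0.109) nor *Rtl1* (0.33, adjusted p = 0.11) passed, and the call of *Rtl1* was also lost without KO MI replicate 7 alone. *Dio3* was listed at 0 or at most 4 counts in a library and was not tested. Beside *Peg3*, the imprinted gene *Zim1* was a DEG in both MI comparisons. Its libraries had 2.65, 4.22, 2.66 and 3.65 CPM in WT SH and 5.001, 8.67, 8.65 and 5.23 CPM in WT MI (log2 fold change 1.07, adjusted p = 0.0529 by edgeR). In KO mice the log2 fold change of *Zim1* was 0.86 (adjusted p = 0.0584 by edgeR), with overlap of the groups, and 0.43 (adjusted p = 0.304) without KO MI replicates 2 and 7. Each of these calls of *Zim1* held in 12 of 16 fits that left out 1 library. *Usp29*, which shares the start region of *Peg3*, was called in KO MI against KO SH (0.55, adjusted p = 0.0817 by edgeR), in 11 of 16 fits that left out 1 library, and not without KO MI replicates 2 and 7 (0.51, adjusted p = 0.163). *Airn*, the antisense transcript of *Igf2r*, was called in none of the comparisons, and its log2 fold changes lay between -0.13 and 0.18.

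Of 32 other imprinted genes, 26 were tested, and few were DEGs. *Snrpn* encodes a protein of small nuclear ribonucleoproteins. It had 16.4, 16.1, 14.9 and 15.2 CPM in WT SH and 9.71, 10.1, 10.1 and 9.60 CPM in KO SH, a log2 fold change of -0.67 (SE 0.08, adjusted p = 0.000109 by edgeR). It was the DEG that was lower among the sham groups, and *Snrpn* remained a DEG in all 16 fits that left out 1 library. *Peg10*, a gene of retrotransposon origin that placental development requires, rose after MI in KO mice, with a log2 fold change of 0.72 (adjusted p = 0.00443 by edgeR), which was 0.51 (adjusted p = 0.0157) without KO MI replicates 2 and 7. The list had 1 DEG in KO SH against WT SH, 1 in KO MI against KO SH and 0 by edgeR in the other comparisons of groups, with 5 genes (WT MI against WT SH) and 6 genes (KO MI against WT MI) at an unadjusted p under 0.05. Over all genes 5.01% were DEGs in KO SH against WT SH, 7.42% in KO MI against KO SH, 2.78% in WT MI against WT SH and 1.73% in KO MI against WT MI, and in the last 2 comparisons the shares at an unadjusted p under 0.05 were 16.5% and 12.4%. *Cdkn1c*, the imprinted inhibitor of the cell cycle, was not called, with means between 17.1 and 19.5 CPM. The median log2 fold change of the list was 0.08 in KO SH against WT SH, where that of the 10 members was 0.06. In KO MI against WT MI these medians were -0.02 and 0.14, and in WT MI against WT SH -0.01 and 0.24. In KO MI against KO SH they were -0.04 and 0.26, and some members were negative there without KO MI replicate 7. The members' median in KO MI against WT MI also depended on single libraries. When 1 library was left out, the lowest estimates there were negative for *Igf2* (-0.02), *Igf2r* (-0.08), *Dlk1* (-0.09), *Meg3* (-0.06), *Peg3* (-0.06) and *Mest* (-0.02). Those of *H19*, *Rian*, *Plagl1* and *Grb10* stayed positive.

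**Figure D3:**
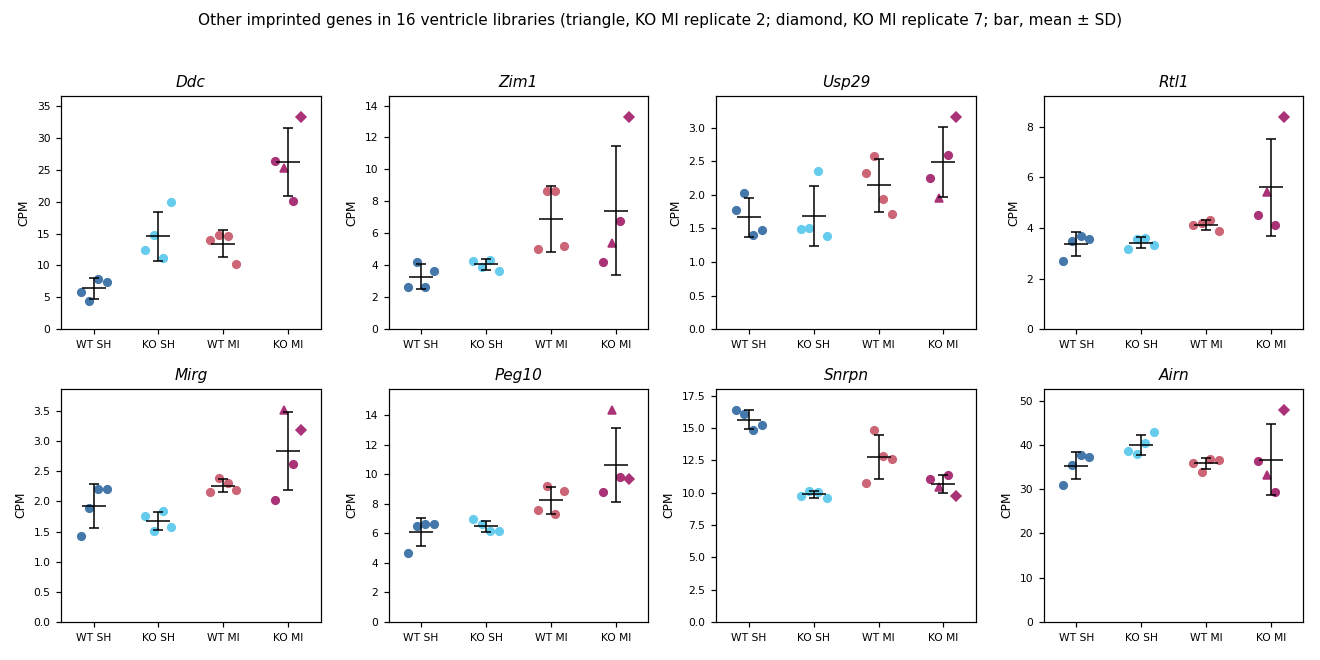
Level of 8 other imprinted genes (CPM, linear axis from 0) in each of the 16 libraries, by group, with the mean and SD as a black bar. *Ddc* is lowest in the 4 WT SH libraries (4.36 to 7.95 CPM) and highest in the 4 KO MI libraries (20.2 to 33.3 CPM), and *Snrpn* is lower in KO SH (9.60 to 10.1 CPM) than in WT SH (14.9 to 16.4 CPM).

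The IGF pathway around *Igf2*, *Igf2r* and *Grb10* was described from a list of 30 genes, of which 27 were tested. The other ligand, *Igf1*, averaged 106 ± 16.4 CPM in KO MI over 79.6 ± 3.69 CPM in KO SH (SD, n = 4 each), a log2 fold change of 0.42 (adjusted p = 0.00824 by edgeR) that missed the fold threshold, and of 0.41 (adjusted p = 0.00285) without KO MI replicates 2 and 7. The receptors *Igf1r* and *Insr* were called in none of the 4 comparisons, and *Igf1r* was highest in KO MI replicates 2 and 7 at 119 and 130.4 CPM. *Irs2*, which encodes an adaptor that carries the signal from these receptors, was the member of the list with the widest difference. *Irs2* had 77.4, 68.2, 52.8 and 57.4 CPM in the WT SH libraries and 13.1, 17.4, 17.7 and 24.5 CPM in the KO SH libraries. After MI it had 20.4, 19.1, 27.9 and 21.6 CPM in WT mice and 10.7, 15.1, 11.1 and 20.4 CPM in KO mice. WT SH was thus above the other 3 groups in every library, with log2 fold changes of -1.82 in KO SH (adjusted p = 3.16e-05) and -1.53 in WT MI (adjusted p = 0.000558) against these same WT SH libraries, by edgeR. The WT SH libraries were also the group with low *Xist* throughout, and with *Xist* as a covariate the values for *Irs2* were -1.61 (adjusted p = 0.000207) and -1.32 (adjusted p = 0.00358). Without KO MI replicates 2 and 7, *Irs2* was also a DEG in KO MI against WT MI (-1.04, adjusted p = 0.0141) and against KO SH (-0.74, adjusted p = 0.0261 by edgeR), where the fits with all libraries gave adjusted p-values of 0.135 and 0.295. The interaction for *Irs2* was 1.18 by edgeR (adjusted p = 0.150) and 1.19 by DESeq2 (adjusted p = 0.0407), so it passed by DESeq2 only. Over all genes 5 passed the interaction by edgeR and 289 by DESeq2.

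The genes *Igf2bp1*, *Igf2bp2* and *Igf2bp3* encode RNA-binding proteins that bind *Igf2* transcripts, and each was a DEG after MI in at least 1 genotype. *Igf2bp3* averaged 11.7 ± 1.31 CPM in WT MI over 7.14 ± 0.637 CPM in WT SH (SD, n = 4 each), a log2 fold change of 0.71 (adjusted p = 0.00341 by edgeR). In KO mice *Igf2bp3* had a log2 fold change of 0.42 (adjusted p = 0.0259), and of 0.19 (adjusted p = 0.296) without KO MI replicates 2 and 7. *Igf2bp1* was a DEG in both WT (0.78, adjusted p = 0.0416) and KO mice (0.56, adjusted p = 0.0670 by edgeR), with means from 0.865 to 1.64 CPM. The call of *Igf2bp1* held in 13 of 16 fits without 1 library in WT mice and in 11 of 16 in KO mice, and it was lost without KO MI replicates 2 and 7 (0.44, adjusted p = 0.228). *Igf2bp2* was a DEG in KO mice (0.56, adjusted p = 0.00666 by edgeR) and not without KO MI replicate 2 alone or without KO MI replicates 2 and 7 (0.25, adjusted p = 0.0391). Among the genes of the list that regulate IGF availability, *Igfbp3*, *Pappa* and *Stc1* were DEGs in KO MI against KO SH, and *Igfbp4*, *Igfbp5*, *Igfbp6*, *Igfbp7*, *Stc2* and *Pappa2* were not. *Igfbp3*, a carrier of IGFs, had a log2 fold change of 1.03 (adjusted p = 0.00254 by edgeR), and 0.79 (adjusted p = 0.0108) without KO MI replicates 2 and 7. *Pappa*, a protease that releases IGFs from carriers, had 1.24 (adjusted p = 0.0132 by edgeR), with overlap of the groups, and 0.79 (adjusted p = 0.123) without these libraries. *Stc1*, an inhibitor of that protease, had 0.57 (adjusted p = 0.0637 by edgeR) and was called in 11 of 16 fits that left out 1 library and without KO MI replicates 2 and 7 (0.62, adjusted p = 0.0221). In all, the list held 5 DEGs of 27 in KO MI against KO SH, 3 in WT MI against WT SH, 1 in KO SH against WT SH and 0 by edgeR in KO MI against WT MI, where 10 had an unadjusted p under 0.05. Over all genes the shares were 7.42%, 2.78%, 5.01% and 1.73%, and 12.4% had an unadjusted p under 0.05 in the last comparison. KO MI against KO SH held 3 DEGs of 27, of which 1 was lower, without KO MI replicates 2 and 7. In that fit 6.59% of all genes tested were DEGs.

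**Figure D4:**
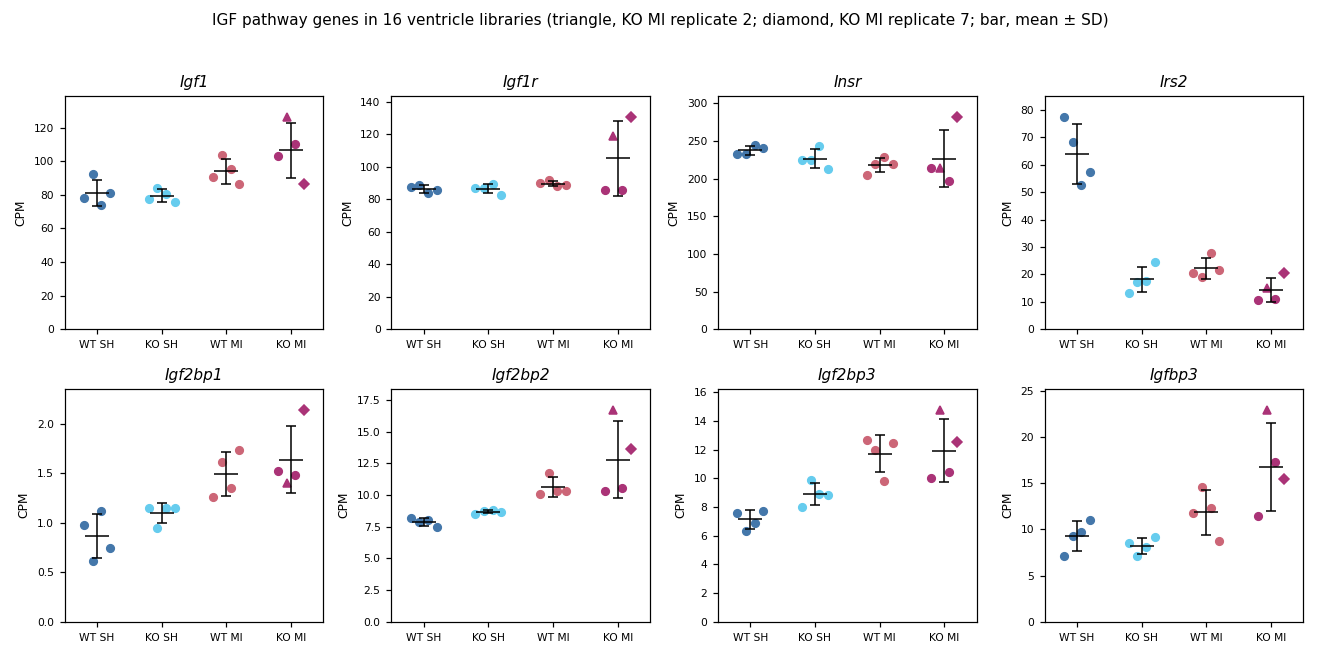
Level of 8 IGF pathway genes (CPM, linear axis from 0) in each of the 16 libraries, by group, with the mean and SD as a black bar. *Irs2* is at 52.8 to 77.4 CPM in WT SH and at most 27.9 CPM elsewhere, and *Igf2bp3* is at 6.36 to 7.71 CPM in WT SH and at 9.82 to 12.7 CPM in WT MI.

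Covariation of the members was measured over the 16 libraries after the mean of each group was subtracted from log2(CPM + 0.5), so that it reflects differences between mice of the same group. Of the 45 pairs 29 had a positive Pearson r, with a median of 0.54, and no pair passed an exact permutation test within groups after adjustment over the 45 pairs (lowest adjusted p = 0.125, where 0.05 was the threshold), while 9 pairs had an unadjusted p under 0.05. *Dlk1* and *Meg3*, neighbours on chromosome 12, had the highest r of 0.91 (exact permutation p = 0.0168, adjusted p = 0.126). Their Spearman rho was 0.79 (exact permutation p = 0.0299, adjusted p = 0.185). Without the 2 libraries farthest from the median, KO MI replicates 7 and 1, r was 0.56. *H19* and *Dlk1* had an r of 0.77 (exact permutation p = 0.00752, adjusted p = 0.125) and a rho of 0.63 (exact permutation p = 0.0193), and r was 0.41 without the same 2 libraries. *Mest* had a negative r with all 9 other members, the lowest with *Peg3* (-0.75, exact permutation p = 0.0111, adjusted p = 0.125; rho -0.63, exact permutation p = 0.0434), which was -0.33 without KO MI replicate 7 and WT SH replicate 3.

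The positive median of the pairs rested on 1 library. Without KO MI replicate 7, the highest library for 8 members and the lowest of its group for *Mest*, 22 of 45 pairs had a positive r and the median was -0.01. In the 3 groups other than KO MI 19 pairs were positive, with a median of -0.03. The pairs of the chromosome 12 domain had positive values over the 15 libraries without KO MI replicate 7, with an r of 0.62 for *Dlk1* and *Meg3*, 0.62 for *Dlk1* and *Rian* and 0.57 for *Meg3* and *Rian*. Within single groups of 4 libraries the sign varied, and r was -0.50 in WT SH and -0.38 in KO SH for *Dlk1* and *Meg3*, -0.95 in WT SH for *Dlk1* and *Rian* and -0.82 in KO SH for *Meg3* and *Rian*. The pair *H19* and *Igf2* had an r of 0.17 without that library and of 0.60 with it, and *Igf2* and *Rian* had -0.82 without it and -0.10 with it. Also without it, *Mest* had an r of -0.58 with *Plagl1*, -0.55 with *Peg3* and -0.54 with *H19*. Its r was -0.04 with *Meg3* and -0.01 with *Igf2r*. *H19* and *Plagl1* had 0.54. The lowest adjusted p of the exact permutation test over these 15 libraries was 0.509.

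**Figure D5:**
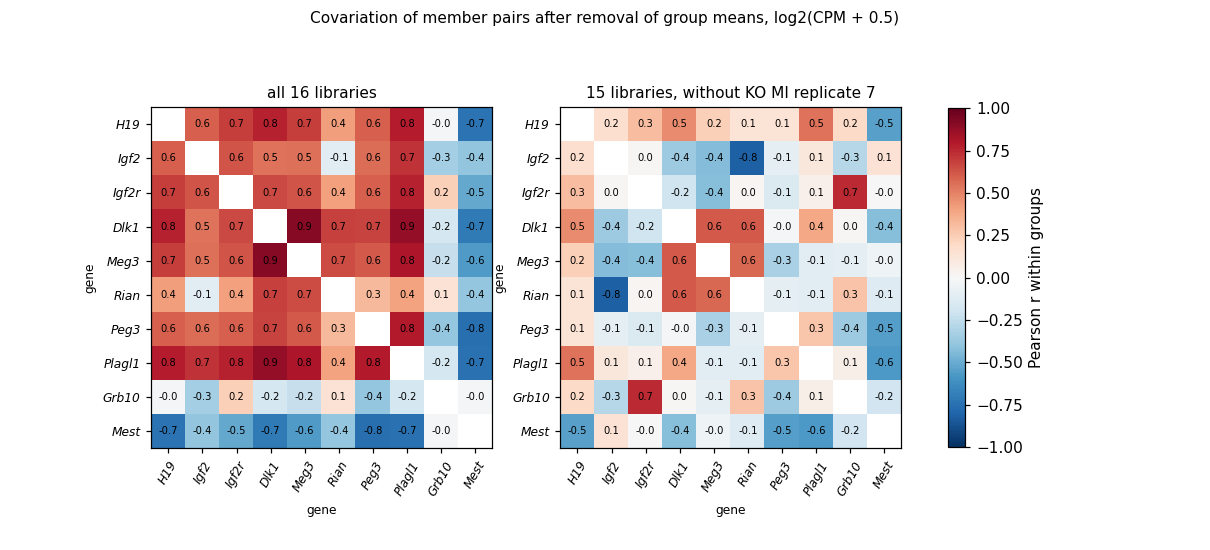
Pearson r of each pair of the 10 members within groups, over 16 libraries (left) and over 15 libraries without KO MI replicate 7 (right), with colour from -1 to 1. The left panel has 29 positive pairs of 45 and the right panel 22, and *Dlk1*, *Meg3* and *Rian* are positive with each other in both.

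The genes most like each member in this covariation were taken from 14115 tested genes whose mean reached 1 CPM, and values are given as a description over the 16 libraries. For *Dlk1* they were *Tnni1* (r = 0.92), which encodes the slow skeletal troponin I of fetal heart, *Cacna1h* (0.91) and *Meg3* (0.91). For *Rian* they were the perinatal myosin gene *Myh8* (0.85), the collagen chaperone gene *Fkbp10* (0.84) and *Mirg* (0.84). *Myh8* is one of the skeletal muscle markers summed above, which were high in KO MI replicates 2 and 7, the libraries in which *Rian* was highest. The r without both libraries was not computed. *Meg3* was most like *Ntn1*, *Dennd6b* and *Vsig10l* (each 0.92). *H19* was most like *Gkap1* (0.93), *Unc119* (0.92) and *Zc3h13* (0.91), and *Igf2* was most like *Mtus1* (0.96), *Rnf207* (0.95) and *Cacna1c* (0.95), the gene of the cardiac L-type calcium channel. For *Igf2r* they were *Magi1* (0.96), *Pde3a* (0.91) and *Ankrd12* (0.88). *Peg3* was most like *Nhsl3*, *Tshz3* and *Lmbr1l* (0.89 to 0.91), and *Plagl1* was most like *Prpf40b*, *Tnrc6a* and *Cic* (0.92 to 0.93). *Grb10* was most like *Upp1* and *Ehd3* (each 0.89) and *Kif26b* (0.87), and *Mest* was most like *Ythdf3* (0.95), *Stam2* and *Ppif* (each 0.94). Without KO MI replicate 7 the values were 0.58 to 0.69 for the genes of *Dlk1*, 0.56 to 0.79 for those of *Meg3*, 0.57 to 0.86 for those of *Igf2r*, 0.56 to 0.67 for those of *Plagl1* and 0.77 to 0.81 for those of *Peg3*. They were 0.80 to 0.87 for the genes of *Rian*, 0.83 to 0.92 for those of *H19*, 0.88 to 0.93 for those of *Igf2*, 0.90 to 0.94 for those of *Mest* and 0.89 for each of those of *Grb10*. No other member was among the 3 most like genes of a member except *Meg3* for *Dlk1*.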

How the data were processed

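RNA sequencing of 16 ventricle libraries was analysed, with groups from the labels. The authors removed adapters (Skewer), mapped stranded read pairs to GRCm39 (STAR) and estimated gene counts (RSEM), as the paper describes it, while the submitters' processing notes name other tools. The annotation release is not given in the sources used here. The deposited table holds RSEM expected counts per gene, as whole numbers without normalization. GENCODE release M39 named 47772 of 51912 identifiers, and the others held 0.57% to 0.786% of the counts of a library.

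Tests were run in R 4.3.3 using edgeR (version 4.0.16), limma (version 3.58.1) and DESeq2 (version 1.42.0). A gene was tested where each group summed to 10 counts or more. Libraries were scaled by TMM and fitted with a quasi-likelihood model over all 16 libraries, with one coefficient per group, and Benjamini-Hochberg adjustment was over all 20159 genes. A DEG needed an adjusted p below 0.1 together with a log2 fold change of 0.5 or more in size, as in the study. Exact permutation tests (two-sided) used log2(CPM + 0.5) over the 70 splits of 8 libraries, or, for covariation, reorderings within groups. CPM values use TMM-scaled library sizes, and levels per kb use the union of GENCODE exons. At these depths 3 counts correspond to 0.0522 to 0.0888 CPM, a limit that covers counting error only. No replicates of a group held the same values, and the lowest chi-square per degree of freedom between replicates was 4.71. RSEM divides reads that fit several genes, so overlapping genes are uncertain.

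Named genes were the 10 members, genes of the lists of domain neighbours, other imprinted genes and IGF pathway called in at least 1 contrast, *Igf1*, *Igf1r* and *Insr*, the 3 genes most like each member, and checks. *Airn*, *Dio3* and *Cdkn1c* were added after their values were seen. The members and lists were chosen with earlier results of these data known, and the ratios were chosen after seeing the values. The fit was tested on simulated data of 20159 genes for KO MI against KO SH, where it called 94% of genes changed by 1 on the log2 scale and 33% of those changed by 0.5. Alternatives were DESeq2, its size factors, no filter, filterByExpr, fitting robustly, fitting a contrast on its own groups, the replicate block, a stricter adjusted p (0.05), no minimum fold, *Xist* as a covariate, no mitochondrially encoded genes, no KO MI replicates 2 and 7, and each library left out in turn.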

Additional observations from a re-analysis of the deposited data

Results flagged for a closer look

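In groups of 4, a library far from the other 3 was marked by the gap to its nearest neighbour as a share of the range of the group, which chance does for about 1 in 20 groups. This applied to 5 of the 40 sets of values of the members. *Dlk1* (6.85 CPM), *Meg3* (159.6 CPM) and *Plagl1* (143 CPM) were far above the rest of KO MI in replicate 7, and *Grb10* (339 CPM) was far above it in replicate 2. These are the 2 libraries with skeletal muscle transcripts. *H19* in KO SH replicate 2 (196 CPM) was below the other 3 libraries of its group, which had 219 to 223 CPM. Explanations were not tested.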

How the results depend on the processing

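The number of members that were DEGs in KO SH against WT SH was 1 in all settings. In KO MI against WT MI and in WT MI against WT SH it was 0, and 1 with no minimum fold change. In KO MI against KO SH it was 2, and 5 with no minimum fold change, between 1 and 2 when 1 library was left out (1 without KO SH replicate 2 or KO MI replicate 7), and 0 without KO MI replicates 2 and 7. For the interaction it was 0, and 1 (*Plagl1*) without KO MI replicates 2 and 7. No called value changed direction, and no pair of members passed the test of covariation in any setting. With the replicate block, 0 members were DEGs in KO MI against KO SH (*H19* 0.37, *Rian* 0.50 on the log2 scale) and 1 passed the interaction (*Plagl1* -0.51, adjusted p = 0.0138 by edgeR), but the numbers come from the titles only, same-numbered libraries did not deviate together (r between -0.06 and 0.18), and KO MI replicate 7, which has a number of its own, drops out of that fit. The replicate block changed no other count.

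Over all genes, 5 passed the interaction by edgeR and 289 by DESeq2, with 840 without KO MI replicate 7, 689 with the replicate block, 369 without KO MI replicates 2 and 7, 169 without WT SH replicate 4, 39 with no filter, 19 with *Xist* as a covariate and 2 to 8 in the other edgeR settings. With 4 libraries per group, most member differences were smaller than the fold threshold. *Dlk1* had few counts. Sex was not given per library, WT SH had no *Xist*-high library, and parental origin was not measured.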
